A study of Homo sapiens with 2 samples.

Results

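The HOX genes were followed in RNA of K562, a human cell line from chronic myeloid leukemia with erythroid features. The members were the 39 protein-coding genes named HOX, a cluster letter from A to D and a number, taken by symbol from a deposited table of 62702 rows. There were 11 in the HOXA cluster, 10 in HOXB, 9 in HOXC and 9 in HOXD. Of the 39, 17 had 20 or more counts summed over both libraries, 10 had between 1 and 19 counts and 12 had none. One library came from cells with a guide RNA against SMC1A, a subunit of the cohesin ring, and the other from cells with a control guide. Cells of both libraries carried the genotype label E50 with dCas9-KRAB, a Cas9 that cannot cut and carries a repressor domain, and were titled WT. The labels explain neither E50 nor whether the line is a single clone, and give no guide sequence. Guides arrived by lentivirus, and sorted cells with high blue fluorescence were harvested after puromycin selection.

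HOX genes encode homeodomain transcription factors that give body segments their identity along the head-to-tail axis. They sit in 4 clusters, and within a cluster the order of the genes follows the order in which they are used, from paralog group 1 at the 3′ end to group 13 at the 5′ end. Polycomb complexes keep silent members off, trithorax complexes containing MLL keep active ones on, and binding sites of CTCF, at which cohesin halts, separate active from silent stretches. In blood cells, HOX genes of the A and B clusters are active in stem and progenitor cells and decline as the cells mature.

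With 1 library per guide no test across samples was possible, so every comparison sets a single library against a single library, and the 95% intervals describe counting error alone. The libraries held 16864207 counts with the SMC1A guide and 18349209 with the control guide. SMC1A itself (ENSG00000072501.19) had 288 counts with the SMC1A guide and 8077 with the control guide, which left 3.55% of the control level (interval 3.14 to 3.99). All 10 erythroid markers listed, GATA1 and KLF1 among them, had 100 or more counts in sum. Of the 10, 4 were past the 2-fold limit on the lower side and 0 on the upper. Among all genes with 1000 or more counts in sum, as each of these markers had, 1.5% were past it downward and 1.8% upward. The marker levels summed to 13310 CPM (a scaled level, defined below) with the SMC1A guide and 14450 CPM with the control guide. HBE1, an embryonic globin gene, carried that sum with 10350 and 6755 CPM. Without it the other markers had 52310 counts with the SMC1A guide and 135038 with the control guide, a ratio of 0.385. In bulk RNA, a difference in the number of cells that express a gene and one in RNA per cell cannot be told apart.

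HOX genes took 0.0316% of the counts with the SMC1A guide (interval 0.0307 to 0.0324) and 0.0266% with the control guide (0.0259 to 0.0274). Levels are given as CPM, the count divided by a library size scaled by TMM, and ratios as the SMC1A guide over the control guide. A gene was called higher or lower when its log2 ratio, taken with a prior count of 1, passed 1 in size, which is 2-fold. Of the 17 HOX genes with 20 or more counts, 8 passed the limit upward (among them HOXA3, HOXB5, HOXB6, HOXB13, HOXC6, HOXC10 and HOXC12) and 0 downward. Of all 14257 genes with 20 or more counts, 9.55% passed it upward and 3.63% downward. The counting interval of 13 HOX genes lay above 1, as it did for 29.4% of all genes, and that of 2 (HOXB4 and HOXB9) lay below 1, as for 32.7% of all genes. The median log2 ratio was 0.84 for the 17 HOX genes and -0.01 for all genes. The filter bears on this count and on the median. Of the 17, 5 (HOXA3, HOXB5, HOXB13, HOXC8 and HOXC10) had under 20 counts with the control guide and passed the filter through the SMC1A library. With 20 counts asked of the control library alone, 4 of 12 HOX genes were at least 2-fold higher, against 4.86% of all genes. The median log2 ratio of those 12 was 0.68. Just inside the limit of 20 summed counts stood HOXC10 with 23 counts with the SMC1A guide and 3 with the control guide, and just outside it HOXC4 with 10 and 9.

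Low genes were also more often higher in the table as a whole. Among genes with 20 or more but under 100 summed counts, 26.6% were at least 2-fold higher and 8.69% lower, and 5 of the 6 HOX genes in that range were higher. Of those 5, 4 (HOXA3, HOXB5, HOXB13 and HOXC10) entered the range only through the SMC1A library, so nothing is read from that count. Among genes with 100 or more but under 1000 the shares were 9.42% and 3.39%, and 3 of 8 HOX genes were higher. Among genes with 1000 or more they were 1.8% and 1.5%, and 0 of 3 HOX genes were higher. Over all genes with 100 or more they were 5.11% and 2.32%, and 3 of 11 HOX genes were higher. The all-gene median log2 ratio also fell with level. It was 0.315 from 20 to under 100 counts, 0.086 from 100 to under 1000 and -0.12 at 1000 or more. The HOX median was 0.761 for the 8 genes from 100 to under 1000 counts and -0.262 for the 3 at 1000 or more.

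**Figure D1:**
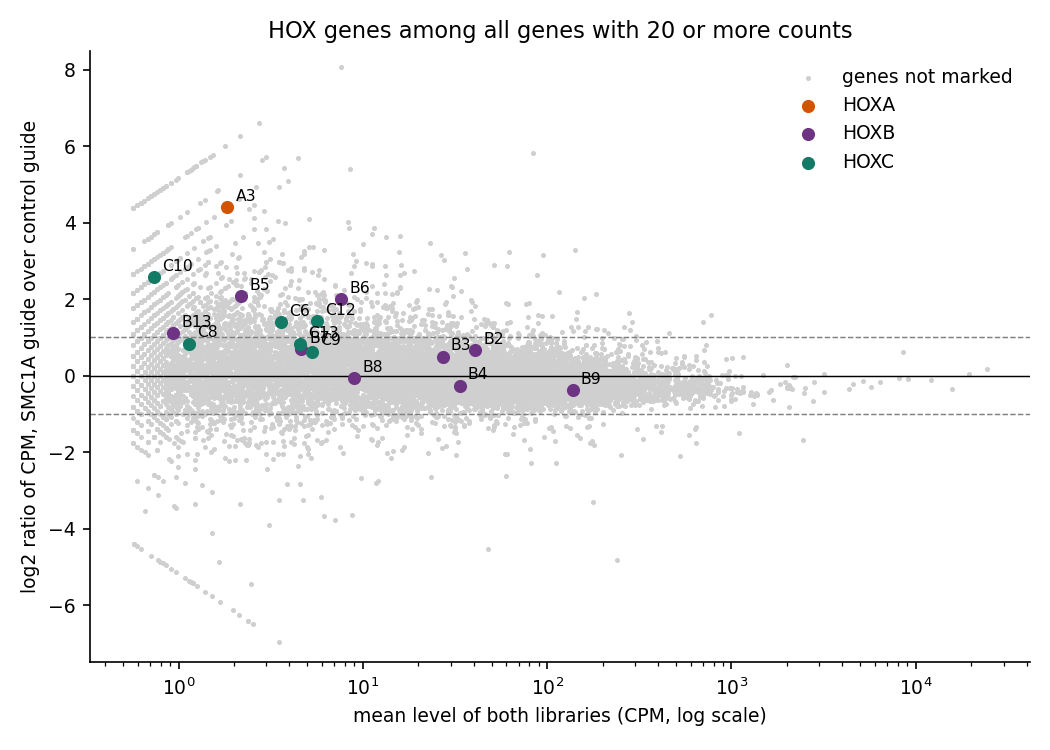
Log2 ratio of CPM (y axis, SMC1A guide over control guide) against mean CPM of both libraries (x axis, log scale) for all 14257 genes with 20 or more counts; grey points are the genes not marked, coloured points 16 HOX genes, and dashed lines mark 2-fold. The HOX genes with the lowest levels lie above the upper dashed line or near it, and the 3 with the highest levels (HOXB2, HOXB4 and HOXB9) lie between the dashed lines.

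The HOXA cluster (chromosome 7, GRCh38) was nearly silent with the control guide and had its counts at the 3′ end in both libraries. The 8 genes from HOXA4 to HOXA13 had 9 counts in sum with the SMC1A guide and 3 with the control guide. Promoter windows of RefSeq (GRCh38.p14, 250 bases before and 50 after a transcript start) were at hand for 20 of the 39 HOX genes, as 26 distinct windows. The first pair below is printed because HOXA3 and its antisense gene HOXA-AS2 were both higher and their starts face each other. The HOXA3 window, 1 of 7 for that gene, is chr7:27122323-27122622 on the minus strand, with its start at 27122372. The HOXA-AS2 window is chr7:27121669-27121968 on the plus strand, with its start at 27121919, so that 453 bases lie between the starts, within both genes. Capitals mark CG, the sites of DNA methylation.
HOXA3: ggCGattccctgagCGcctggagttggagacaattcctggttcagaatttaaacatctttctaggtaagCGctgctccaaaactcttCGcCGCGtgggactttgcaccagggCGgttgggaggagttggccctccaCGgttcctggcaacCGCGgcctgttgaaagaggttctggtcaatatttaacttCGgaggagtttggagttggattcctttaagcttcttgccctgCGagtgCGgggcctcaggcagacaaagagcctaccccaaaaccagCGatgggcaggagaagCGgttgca
HOXA-AS2: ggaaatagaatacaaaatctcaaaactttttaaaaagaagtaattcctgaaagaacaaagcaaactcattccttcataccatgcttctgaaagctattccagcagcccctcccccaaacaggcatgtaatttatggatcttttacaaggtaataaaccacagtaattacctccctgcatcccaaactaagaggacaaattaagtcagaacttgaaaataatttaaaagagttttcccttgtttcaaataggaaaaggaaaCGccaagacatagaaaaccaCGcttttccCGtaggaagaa
The HOXA3 window holds 15 CG and the HOXA-AS2 window 3, against a median of 22.5 over the HOX windows and 14 over all 35116 windows.

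The other pair is printed because each window holds a motif for a factor tied to HOX clusters. The HOXA2 window is chr7:27102634-27102933 on the minus strand, with capitals at ATCAATCA, a reverse-strand match of TGATNNAT, the letters bound by HOX proteins together with PBX. The HOXA10 window is chr7:27179812-27180111 on the minus strand, with capitals at CCACGAGATGGC, a match of the CTCF core motif.
HOXA2: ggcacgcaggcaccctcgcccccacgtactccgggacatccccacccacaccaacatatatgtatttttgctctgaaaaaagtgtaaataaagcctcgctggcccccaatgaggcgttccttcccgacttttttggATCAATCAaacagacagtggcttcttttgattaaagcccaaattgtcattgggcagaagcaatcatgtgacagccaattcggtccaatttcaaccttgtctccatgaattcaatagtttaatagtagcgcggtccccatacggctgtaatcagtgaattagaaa
HOXA10: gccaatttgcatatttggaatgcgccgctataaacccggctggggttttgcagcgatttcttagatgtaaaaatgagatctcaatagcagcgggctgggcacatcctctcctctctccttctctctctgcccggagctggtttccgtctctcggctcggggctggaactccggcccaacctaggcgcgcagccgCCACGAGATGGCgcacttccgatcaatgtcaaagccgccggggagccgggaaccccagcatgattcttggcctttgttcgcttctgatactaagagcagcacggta
Both strands were searched and the motifs do not overlap in these windows. TGATNNAT was in 3 of 26 HOX windows (HOXA2, HOXB1 and HOXD11) and in 7.4% of all windows. The CTCF core motif was in 1 of 26 HOX windows and in 2.41% of all windows. AGGTCA, the letters a single nuclear receptor binds, was in 0 of 26 HOX windows and in 13.8% of all windows. A match describes letters and is not evidence of binding.

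HOXA2, a factor of the hindbrain and second pharyngeal arch, had 6 counts with the SMC1A guide and 0 with the control guide. Set against a fixed floor of 3 counts in place of 0, it was at least 1.99-fold higher. The lower limit of the exact interval, which also takes in the error of the 6 counts, was 1.17. HOXA3, which shapes the thymus and parathyroid, had 63 counts with the SMC1A guide and 2 with the control guide, 31.3-fold higher (interval 8.32 to 264.4). HOXA3 had the largest ratio of the 17 HOX genes with 20 or more counts, and its counting interval was wide because it rests on 2 control counts.

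Past HOXA3 the cluster had almost no RNA. HOXA4, HOXA6, HOXA7 and HOXA9, the last a driver of self-renewal in acute leukemia, had 0 counts in both libraries. The upper limit of the exact interval for a count of 0 was 0.209 CPM with the SMC1A guide and 0.21 CPM with the control guide. HOXA5 had 1 count and 0, HOXA10 had 1 and 1, and HOXA13, a gene of the distal limb, had 1 and 1. HOXA11 had 6 counts and 1, a ratio of 5.97 with an interval of 0.724 to 274.5 that includes 1. No difference was detectable in these genes at this depth.

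**Figure D2:**
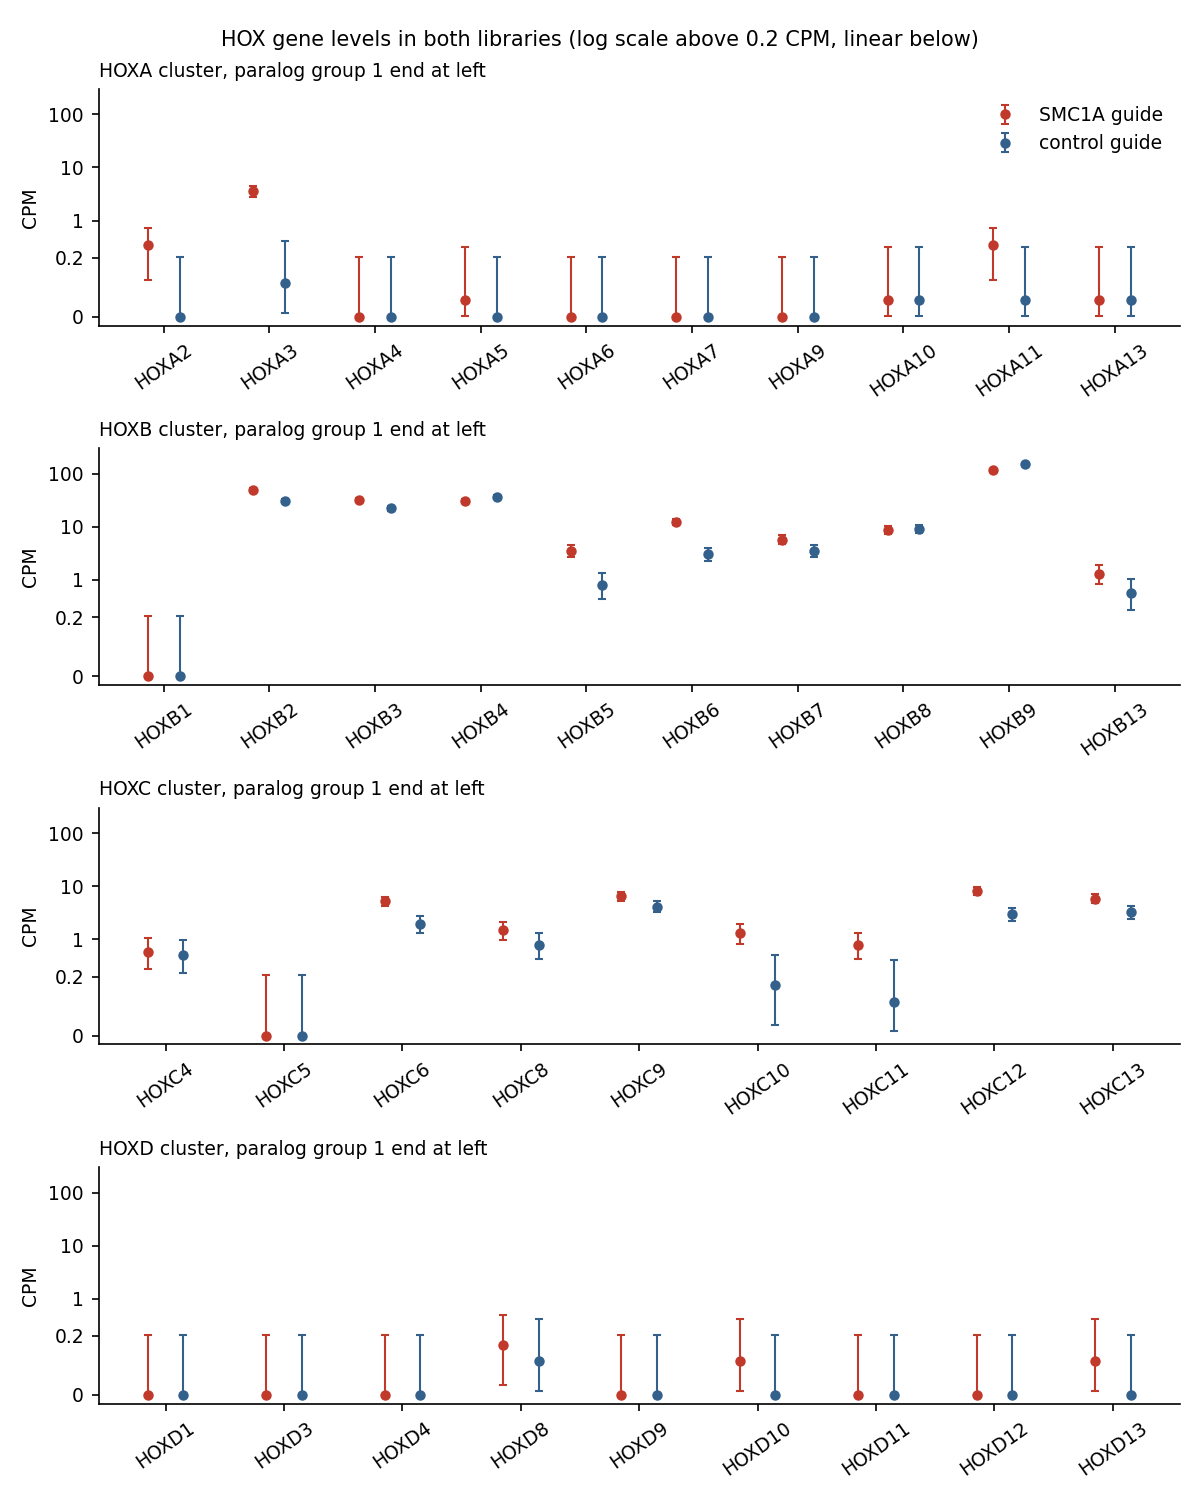
Level of 38 HOX genes (y axis, CPM, log scale above 0.2 and linear below) in the library with the SMC1A guide (red, left of each pair) and with the control guide (blue), 1 panel per cluster with the 3′ end at the left; bars are exact 95% Poisson intervals of the count. HOXB held the highest levels in both libraries, HOXA3 differs most between the libraries in the HOXA panel, and HOXD lay at or near 0.

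The HOXB cluster (chromosome 17, 48528526 to 48729178) held most HOX RNA, with 87.3% of the HOX counts with the SMC1A guide (interval 86.4 to 88.2) and 94.3% with the control guide (93.6 to 94.9). Its summed counts hardly differed, 4649 with the SMC1A guide and 4606 with the control guide, a ratio of 1 with an interval of 0.964 to 1.05. Its members differed in both directions beneath that sum. Without HOXB9, the member with the most counts, the cluster had 2534 counts with the SMC1A guide and 1882 with the control guide, a ratio of 1.34.

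At the 3′ end, HOXB1, a marker of hindbrain rhombomere 4, had 0 counts in both libraries. HOXB2, also a hindbrain gene, had 880 counts with the SMC1A guide and 547 with the control guide, 1.6-fold higher (interval 1.44 to 1.78; 49.9 and 31.2 CPM). HOXB3, a gene of hindbrain and blood progenitors, had 559 and 394 counts, 1.41-fold higher (1.24 to 1.61). Both intervals lay above 1 and below 2-fold. HOXB4, which expands blood stem cells when forced on, had 537 counts with the SMC1A guide and 641 with the control guide (30.4 and 36.5 CPM), a ratio of 0.833 (0.742 to 0.936). HOXB4 was thus lower beside a pair of neighbours that were higher. Taken inside each library, so that no scaling enters, there were 1.64 HOXB2 counts per HOXB4 count with the SMC1A guide (1.47 to 1.83) and 0.853 with the control guide (0.76 to 0.958).

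In the middle of the cluster, HOXB5 and HOXB6 stood apart from the genes on either side. HOXB5, which marks long-term blood stem cells in mouse, had 63 counts with the SMC1A guide and 14 with the control guide, 4.48-fold higher (interval 2.48 to 8.65). HOXB6 had 216 and 53 counts, 4.05-fold higher (2.99 to 5.58; 12.2 and 3.02 CPM). Both intervals lay wholly past 2-fold, as they did for 4 of the 17 HOX genes (the others were HOXA3 and HOXC10) and for 4.44% of all genes with 20 or more counts. Of these 4, HOXB6 had 20 or more control counts, and the others passed the filter through the SMC1A library, so the 2 shares are not compared. The pair kept about the same proportion, with 0.292 HOXB5 counts per HOXB6 count with the SMC1A guide (0.217 to 0.388) and 0.264 with the control guide (0.135 to 0.483). HOXB7 had 101 and 62 counts, 1.62-fold higher (1.17 to 2.26). HOXB8, used to hold mouse myeloid progenitors in growth, had 155 and 161 counts, a ratio of 0.958 whose interval (0.763 to 1.2) includes 1. Its log2 ratio was -0.06, or 0.07 when libraries were scaled by their totals.

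HOXB9, a patterning gene of the thoracic skeleton in mouse, was the HOX gene with the most counts in both libraries, 2115 with the SMC1A guide and 2724 with the control guide (119.9 and 155.3 CPM). Its ratio was 0.772 (interval 0.729 to 0.818), the lowest of the 17. HOXB9 made up 39.7% of HOX counts with the SMC1A guide (38.4 to 41.1) and 55.8% with the control guide (54.4 to 57.2). HOXB6 made up 4.06% and 1.09%. For each HOXB9 count there were 0.102 HOXB6 counts with the SMC1A guide (0.0884 to 0.117) and 0.0195 with the control guide (0.0145 to 0.0255). At the far 5′ end, beyond a long gap, HOXB13, a prostate and tail gene, had 23 and 10 counts, 2.29-fold higher with a wide interval (1.05 to 5.38). Its log2 ratio was 1.12, or 0.9 and so under the 2-fold limit with a prior count of 5.

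Per length of annotated exons, HOXB9 had the highest level of the 39 genes with both guides, 46.5 CPM per kilobase with the SMC1A guide and 60.1 with the control guide. HOXB2 was next, at 21.4 and 13.3 CPM per kilobase, followed by HOXB4 at 8.1 and 9.72. HOXB6 held rank 4 at 4.7 CPM per kilobase with the SMC1A guide and rank 9 at 1.16 with the control guide. With the SMC1A guide its neighbours in the order, HOXB8 at 4.29 and HOXB3 at 4.25 CPM per kilobase, lay close to it.

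**Figure D3:**
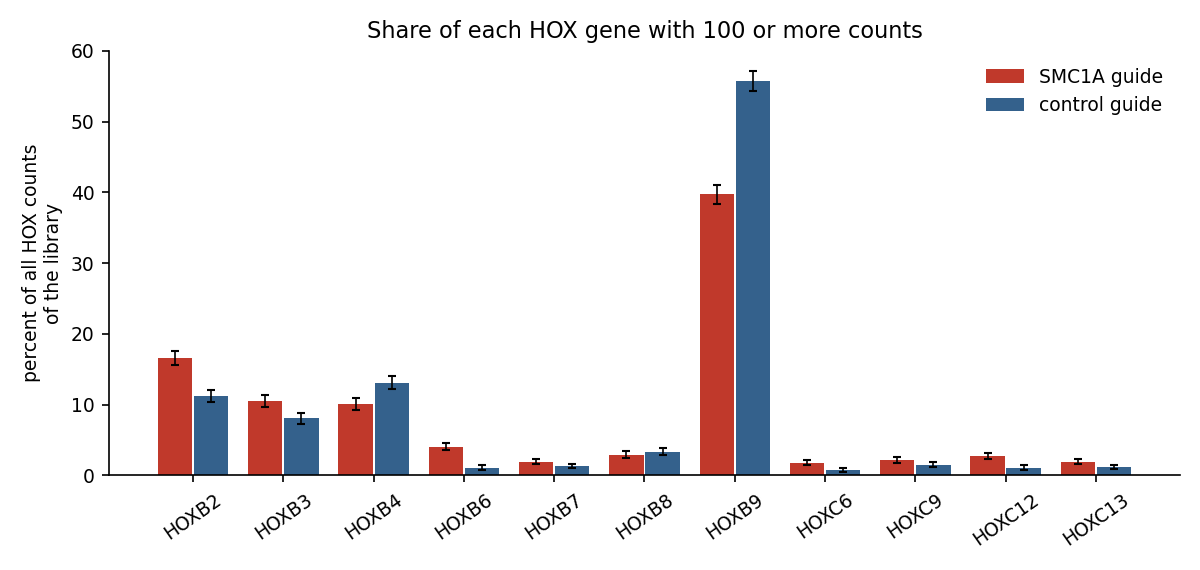
Share of all HOX counts of a library (y axis, percent) taken by each HOX gene with 100 or more summed counts, with the SMC1A guide (red, left) and the control guide (blue); bars are exact 95% binomial intervals. HOXB9 takes 39.7% with the SMC1A guide, against 55.8% with the control guide, and HOXB2, HOXB3 and HOXB6 take larger shares with the SMC1A guide.

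In the HOXC cluster (chromosome 12, 53938765 to 54056030) all 6 genes with 20 or more counts had a higher level with the SMC1A guide. Of the 6, 3 passed 2-fold upward, against 9.55% of all genes with 20 or more counts. HOXC8 and HOXC10, the latter among the 3, had under 20 control counts and passed the filter through the SMC1A library. Nothing is therefore read from the 6 or from the 3. The cluster had 528 counts with the SMC1A guide and 245 with the control guide, 2.14-fold higher (interval 1.84 to 2.5; 29.9 and 14 CPM). Its share of HOX counts was 9.92% (9.13 to 10.8) with the SMC1A guide and 5.02% (4.42 to 5.67) with the control guide. The difference did not rest on a single gene, since the ratio without HOXC12, the member with the most counts, was 1.98 (1.66 to 2.37).

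HOXC6, a gene of the thoracic region, had 92 counts with the SMC1A guide and 34 with the control guide, 2.69-fold higher (interval 1.8 to 4.12). HOXC9, which sets thoracic motor neuron identity in mouse, had 114 and 73, 1.55-fold higher (1.15 to 2.11). HOXC8 had 26 and 14, and its interval of 0.93 to 3.83 includes 1. Summed over paralog groups 4 to 8 the ratio was 2.23 (1.62 to 3.11), and over groups 9 to 13 it was 2.12 (1.78 to 2.53). HOXC10, a gene of lumbar motor neurons in mouse, had 23 and 3 counts, a ratio of 7.63 (2.3 to 39.7). HOXC12 had 146 counts with the SMC1A guide and 53 with the control guide, 2.74-fold higher (1.99 to 3.83), and HOXC13, which controls hair keratin genes, had 103 and 57, 1.8-fold higher (1.29 to 2.53). Of the members under 20 counts, HOXC11 had 14 and 2, a ratio of 6.96 (1.6 to 63.1), HOXC4 had 10 and 9, and HOXC5 had none.

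The HOXD cluster (chromosome 2, 176092891 to 176190907) was off in both libraries. It had 7 counts with the SMC1A guide and 2 with the control guide over 9 genes, and 6 of them had 0 counts in both. HOXD8 had 3 and 2 counts, HOXD10 had 2 and 0, and HOXD13, a gene of the digits, had 2 and 0. The interval of the summed ratio, 0.663 to 34.4, includes 1.

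Sums by position over all 4 clusters differed along the axis. Paralog groups 1 to 3 had 1568 counts with the SMC1A guide and 969 with the control guide, a ratio of 1.61 (interval 1.48 to 1.75). Groups 4 to 8 had 1204 and 990 counts, a ratio of 1.21 (1.11 to 1.32). Groups 9 to 13 had 2550 and 2925 counts, a ratio of 0.867 (0.822 to 0.915). The order of these sums rests on a few genes with many counts. Without HOXB9, groups 9 to 13 had 435 and 201 counts, a ratio of 2.15 (1.82 to 2.56), and without HOXB4, groups 4 to 8 had 667 and 349, a ratio of 1.9 (1.67 to 2.17). Without HOXB2, groups 1 to 3 stayed at 1.62 (1.43 to 1.83), so no decline from one end to the other remained once the member with the most counts was left out of each sum. Within HOXB, the cluster with counts at most positions, the ratio went up and down along the cluster, being above 1 at groups 2 and 3, below at 4, past 4-fold at 5 and 6, and below 1 again at 9.

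**Figure D4:**
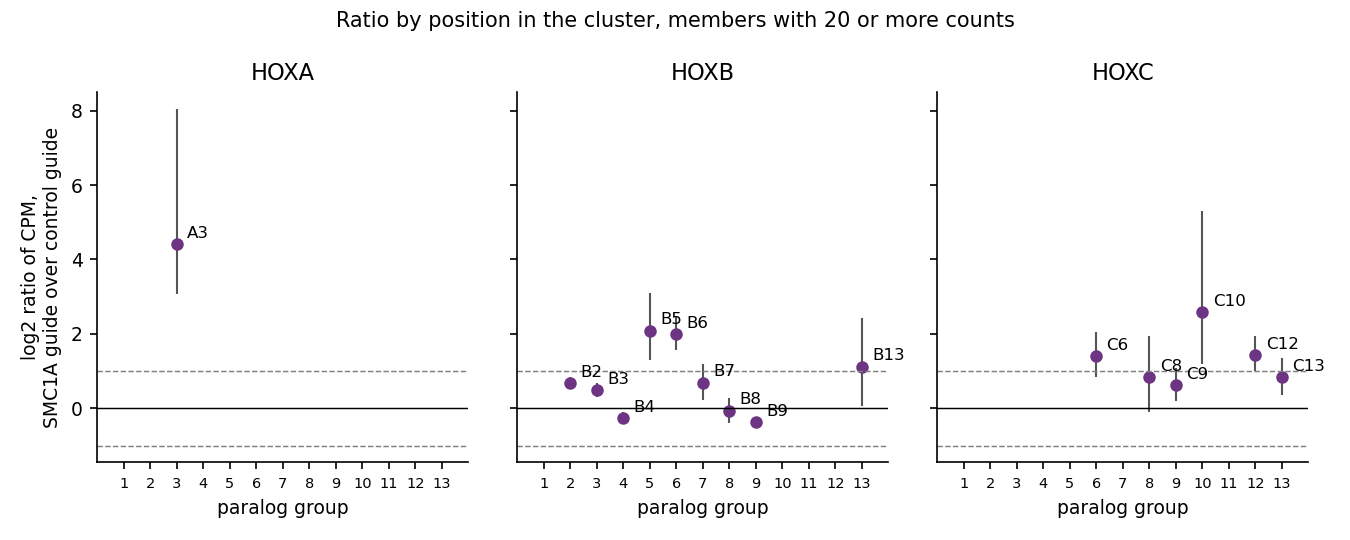
Log2 ratio of CPM (y axis, SMC1A guide over control guide, prior count 1) by paralog group (x axis, 1 at the 3′ end) for 16 HOX genes with 20 or more counts, 1 panel per cluster; HOXD had none. Vertical lines are exact 95% counting intervals of the ratio and dashed lines mark 2-fold; HOXB5 and HOXB6 lie near 2, between HOXB4 at -0.26 and HOXB7 at 0.69, and the 6 HOXC genes lie above 0.

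Non-coding genes inside the clusters were low as well. Of 24 listed, 14 had 0 counts in both libraries, all 6 microRNA genes among them, whose short RNAs a poly(A) library does not capture. The 3 with 20 or more counts had a higher level with the SMC1A guide. Of them, HOXA-AS2 and HOTAIRM1 had under 20 control counts and passed the filter through the SMC1A library, so nothing is read from the 3 together. Of all 10 with a count, 5 had more and 5 had fewer after scaling. Some of the 5 with fewer had 1 count in each library and differed by the scaling alone. The median log2 ratio was 1.45 over the 3 and 0.41 over the 10. HOXA-AS2, which overlaps HOXA3, had 36 counts with the SMC1A guide and 3 with the control guide, a ratio of 11.9 (interval 3.77 to 60.6). HOTAIRM1, at the 3′ end of the HOXA cluster, had 21 and 7, 2.98-fold higher (1.22 to 8.31). HOXB-AS1, which overlaps HOXB2 and HOXB3 on the other strand, had 61 and 34, 1.79-fold higher (1.16 to 2.8). The lincRNA gene ENSG00000260597, inside HOXC but not on the list, had 24 and 17 counts, a ratio of 1.4 whose interval (0.724 to 2.79) includes 1. It and the next 3 were named after their counts were seen. HOTAIR, a non-coding gene of the HOXC cluster, had 0 and 2 counts, and HOTTIP, at the 5′ end of HOXA, had none. The direction of HOXC-AS1 was the opposite, with 6 and 13 counts, but its interval (0.143 to 1.3) includes 1.

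Overlap limits some of these values. In GENCODE release 29, exons of HOXA3 share 662 bases with antisense genes and 672 with genes of the same strand that have only clone names. Exons of HOXB3 share 592 bases with HOXB4 and HOXB6, and 433 bases of HOXB6 are shared with HOXB3. Those of HOXB4 share 751 bases with HOXB3, MIR10A and a clone-named gene. With antisense genes, HOXB2 shares 87 bases, HOXB3 shares 451 and HOXB6 shares 425. Exons of HOXC6 share 862 bases with HOXC4, HOXC5 and HOXC9. HOXC9 shares 73 bases with HOXC6, and HOXC10 shares 166 with a clone-named gene. How reads were divided there depends on the authors' counting, and whether it used strand is not given in the sources used here. HOXB5, HOXB7, HOXB8, HOXB9, HOXC8, HOXC12 and HOXC13 share no exon bases with a gene of the same strand.

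Genes around the clusters were mostly within 2-fold. Of 32 listed neighbours, 25 had 20 or more counts, 1 passed 2-fold upward and 0 downward, and their median log2 ratio was 0.03. All but 1 of the 25 had 100 or more counts, where 5.11% of all genes passed upward and 2.32% downward. Most had 1000 or more, where the shares were 1.8% and 1.5%. The 1 that passed, CALCOCO1, lay between 100 and 1000 counts, where they were 9.42% and 3.39%. With 1 such gene the shares are not compared. CALCOCO1, on the 5′ side of HOXC, had 533 counts with the SMC1A guide and 232 with the control guide (log2 ratio 1.19), and SKAP2, on the 3′ side of HOXA, had 721 and 439 (0.71). NFE2, an erythroid factor gene past the 3′ side of HOXC, had 1768 and 2923 (-0.73), and ATP5MC1, past the 5′ side of HOXB, had 1055 and 1446 (-0.46). EVX1, SKAP1 and TTLL6 had 0 counts in both libraries, as had PRAC1 and PRAC2, which lie inside HOXB between HOXB9 and HOXB13, and EVX2, beside HOXD13, had 2 and 0.

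The TALE homeobox genes encode the partners with which HOX proteins bind DNA. Of 9, 6 had 20 or more counts, of which 2 passed 2-fold upward, against 9.55% of all genes, and 0 downward. Their median log2 ratio was 0.1, or 0.61 over the 8 with any count. MEIS2 had 429 counts with the SMC1A guide and 197 with the control guide, 2.17-fold higher (interval 1.83 to 2.58). MEIS3 had 48 and 8 counts and was picked for its ratio, 5.97-fold higher (2.8 to 14.6). It passed the filter through the SMC1A library, so nothing is read from the 2 of 6. PBX2, the member with the most counts, had 4141 and 3843 (log2 ratio 0.1), and PKNOX1 had 290 and 354 (-0.29). MEIS1, the partner of HOXA9 in leukemia and likewise picked with its counts in view, had 13 and 12 counts.

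Genes of the complexes that hold HOX genes on or off were mostly high in both libraries, and among all genes with 1000 or more counts 1.8% passed 2-fold upward and 1.5% downward. Of 17 trithorax and MLL genes with 20 or more counts, 0 passed 2-fold in either direction (median log2 ratio -0.17), from WDR5 at -0.52 and ASH2L at -0.45 to PSIP1 at 0.29 and AFF4 at 0.47. Of 20 Polycomb genes, 1 passed 2-fold upward and 0 downward (median 0.01). The gene past 2-fold was PHC1, a subunit of Polycomb complex 1, with 313 counts with the SMC1A guide and 145 with the control guide (log2 ratio 1.1). At its level, 100 or more but under 1000 counts, 9.42% of all genes passed upward. EZH1, a methyltransferase of Polycomb complex 2, was at 0.49, JARID2, which helps recruit that complex, at -0.74 and RBBP7 at -0.31.

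Retinoic acid and the CDX factors switch on HOX genes in the embryo. Of 19 such genes, 9 had 20 or more counts, of which 1 passed 2-fold upward and 1 downward, against 9.55% and 3.63% of all genes (median log2 ratio 0.09). The gene past 2-fold upward had under 20 control counts and passed the filter through the SMC1A library, so nothing is read from it. DHRS3, which reduces retinal and so limits retinoic acid, had 158 counts with the SMC1A guide and 637 with the control guide, 4.05-fold lower (log2 ratio -2.01, interval -2.28 to -1.77). The receptor genes RXRA and RXRB were at 0.32 and 0.25, and RARG at -0.03. RARB, itself a target of retinoic acid and named after its counts were seen, had 15 and 0 counts, at least 4.97-fold higher set against 3 counts, with an exact lower limit of 3.57. CDX1, CDX2 and CDX4 had 0 counts in both libraries.

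**Figure D5:**
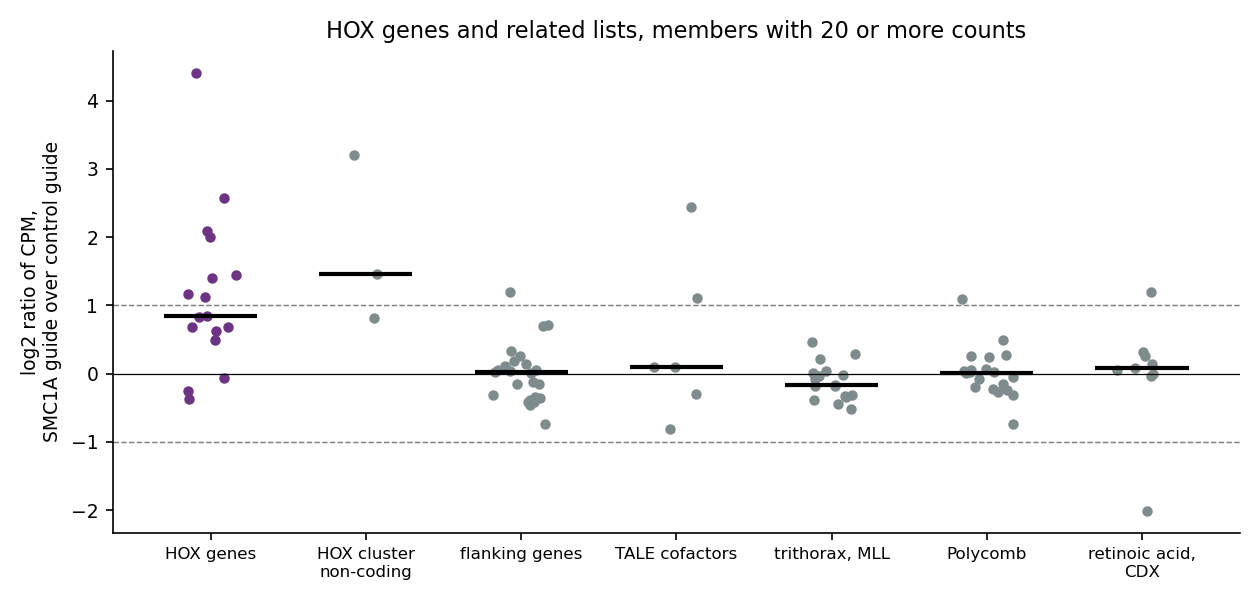
Log2 ratio of CPM (y axis, SMC1A guide over control guide) of each gene with 20 or more counts in the HOX clusters and in 6 related lists; each point is a gene, thick lines are medians and dashed lines mark 2-fold. The HOX median is 0.84, that of the 3 non-coding genes 1.45, and those of the other lists lie between -0.17 and 0.1. Of the HOX genes, 5 passed the filter through the SMC1A library, as did HOXA-AS2, HOTAIRM1 and members of other lists. The lists also differ in level, and genes under 20 counts are not drawn.

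Markers of other cell types also differed between the libraries. Their counts stand beside 9.55% of all genes with 20 or more counts passing 2-fold upward and 3.63% downward, and 26.6% and 8.69% of those under 100. Of 8 fibroblast markers, 3 had 20 or more counts and 2 were at least 2-fold higher, and the list summed to 25.1 CPM with the SMC1A guide and 7.87 CPM with the control guide. COL3A1 had 154 and 2 counts, COL1A1 233 and 64, and COL1A2 42 and 70, while PDGFRA, LUM and THY1 had 0 in both libraries. Of 8 megakaryocyte markers, 4 of the 5 with 20 or more counts were at least 2-fold higher, with 67.7 CPM in sum with the SMC1A guide and 21.9 with the control guide, and PF4 and GP9 had 0 in both. Monocyte markers summed to 58.3 and 43.7 CPM, 1 of 3 past 2-fold upward, 0 downward and S100A8 at 0 in both. In the fibroblast, megakaryocyte and monocyte lists, a gene called higher had under 20 control counts and passed the filter through the SMC1A library. Nothing is therefore read from the counts of higher genes in those lists. Lymphoid markers summed to 30.8 and 25.9 CPM, 1 of 5 past 2-fold upward, 2 downward and MS4A1 at 0 in both. The part of such cells, or of a shift of the K562 cells themselves, in the HOX values was not tested.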

How the data were processed

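RNA was measured in 2 libraries, 1 per guide. The table of estimated counts per gene was deposited by the authors as whole numbers, not scaled between libraries. The tools named in the submitters' processing notes are Salmon 1.10.1, STAR 2.7.10a and DESeq2 1.42.1, and the build is hg38. Neither the annotation behind the table nor its strand setting is stated there or in the labels.

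Rows were named through a table of gene identifiers; all 39 HOX genes matched it and GENCODE release 29, which gave positions and exons. Its build is that of the notes, but the table may rest on another annotation. The 2 reporter rows, 0.0999% of counts with the SMC1A guide and 0.0628% with the control guide, stayed in the library totals. TMM factors came from edgeR 4.0.16 (R 4.3.3), the alternative size factors from DESeq2 1.42.0. Log2 ratios of CPM used edgeR's formula with a prior count of 1. Intervals are exact (Clopper-Pearson for ratios and shares, Poisson for levels) at 95%; they cover counting error only, and the labels name no molecular identifiers. Python 3.11.15, numpy 2.4.6, scipy 1.17.1, pandas 2.3.3 and matplotlib 3.10.9 were used. The calculation was tested on simulated data.

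The named genes were the HOX genes (1 of them and some markers are not reported here), non-coding genes with 20 counts, and the 2 highest and 2 lowest of each other list with 100 counts. The members and lists were chosen with earlier results of these data known. Other scalings, prior counts, filters and limits were tried.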

Additional observations from a re-analysis of the deposited data

How the results depend on the processing

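No paired analysis was possible because each guide had 1 library, and no replicate could be left out. Of 117 alternative values, 101 stayed within the counting interval or within 1.5 times the count. For a list median, the interval was that of the member nearest to it, which is wide for a low gene. With no filter, the non-coding median of 1.45 became 0.41 and the TALE median of 0.1 became 0.61, and both were among the 101. The 101 is thus no measure of how stable the medians were. HOX genes at least 2-fold lower stayed at 0 in each. The count of 8 HOX genes at least 2-fold higher followed the filter and the limit. It was 3 with 100 summed counts, 13 with no filter, 13 with a 1.5-fold limit, 4 when the whole interval had to pass 2-fold, and 4 with 20 counts in the control library alone or in each library, both chosen after seeing the data. With library totals as the scale, the all-gene median log2 ratio shifted by 0.125 and gave 1678 genes higher and 399 lower (80.8% higher) in place of 1361 and 518 (72.4%). With it the summed log2 ratio was 0.14 for HOXB, 0.82 for paralog groups 1 to 3, 0.404 for 4 to 8 and -0.076 for 9 to 13, and the median was 0.16 for flanking and -0.043 for trithorax and MLL genes. Without the member with the most counts, the summed log2 ratio was 3.71 for HOXA, 0.42 for HOXB, 0.93 for groups 4 to 8 and 1.1 for 9 to 13. Of the 17 HOX genes, HOXB8 changed sign under library totals and HOXB13 lost its 2-fold call with a prior count of 5. A filter of 100 counts left no non-coding gene. Depth limits the members under 20 counts most, where a fold against a count of 0 used a fixed floor of 3 counts.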
